A study of Homo sapiens with 18 samples.

Results

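The 59 genes described here all lie on the long arm of human chromosome 8 (8q), between the start of RAB2A at base 60516857 and the end of ATAD2 at base 123416350 of GRCh38. They were found by symbol in the DU145 table, which holds 37256 genes, and by Ensembl identifier in the tables of the other lines. Their names had been chosen with the change between EMD knockdown and control in DU145 already known, so every DU145 value of these genes describes that choice and carries no test. The values of 22Rv1 and C4-2B were known at that time too, and are read here against the background of each line. All 59 genes were tested in DU145 and 22Rv1. In C4-2B 57 were tested, because CA2 is not in that table and FABP5 had too few reads.

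RNA was sequenced from 18 libraries of 3 human prostate cancer cell lines in 6 groups of 3: DU145 with EMD knockdown and DU145 control, 22Rv1 with EMD knockdown and 22Rv1 control, and C4-2B with EMD knockdown and C4-2B control. DU145 was derived from a metastasis, 22Rv1 was grown out of a xenograft tumour that came back after castration, and C4-2B descends from LNCaP cells passaged in castrated mice. EMD encodes emerin, an inner nuclear membrane protein that binds lamins, and knockdown cells received siRNA to EMD while controls received a scrambled siRNA, both for 24 hours with a lipid reagent, per the labels' protocols. DU145 was kept in DMEM and the other lines in RPMI-1640. The library names of the DU145 knockdown cells begin with shEMD, a form commonly used for hairpin vectors, so the reagent those cells received is uncertain. Each line has a table, a batch label and a protocol of its own, and these cannot be told apart from the line. The labels do not say whether the 3 libraries of a group were separate cultures, and p-values then measure only the spread between these libraries, which may be technical.

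The long arm of chromosome 8 is often gained in prostate cancer, and the short arm is often lost, in many tumours together. When extra copies of an arm are present, genes that share the arm tend to show higher transcript levels side by side whatever their function, with some held back or pushed further by their own regulation. DNA was not measured in the files used here, so copy number and transcript output per copy cannot be told apart. In bulk RNA, a smaller share of cells with a transcript and less of it per cell cannot be told apart either.

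The DU145 libraries held 21024352 to 43311727 reads, those of 22Rv1 15602874 to 30788078 and those of C4-2B 14722733 to 25112148. EMD, the targeted gene, stood at 4.61, 4.77 and 5.01 CPM in DU145 knockdown libraries, against 45.1, 47.7 and 40.7 CPM in DU145 controls. In 22Rv1 it stood at 21.2, 19.6 and 17.5 CPM after knockdown, against 65.4, 69.7 and 60.9 CPM in controls, and in C4-2B at 8.49, 10 and 6.38 CPM, against 67.2, 75.1 and 67.3 CPM. CPM here are counts relative to the library total, scaled by TMM over the tested genes of a line, and they are not divided by gene length, so they are not compared between genes. The prostate markers KLK3, KLK2, TMPRSS2 and HOXB13 did not exceed 0.79 CPM of all reads in any DU145 library. FOXA1 of the same list lay at 108.2 to 115.2 CPM in DU145 knockdown libraries, against 85.6 to 93.9 CPM in controls. In DU145 the epithelial markers EPCAM, KRT8, KRT18 and CDH1 summed to 1047.3 to 1077.4 CPM after knockdown and 2012.3 to 2129.3 CPM in controls, with CDH1 at 4.6 to 5.51 CPM against 22 to 22.4 CPM. KRT8 and KRT18 were lower too, but EPCAM was higher, at 102.4 to 113 CPM after knockdown, against 70.1 to 72.9 CPM in controls. The blood list summed to 29.3 to 30.8 CPM after knockdown and 91.8 to 94.2 CPM in controls, nearly all of it CD68, with PTPRC, CD3E and LYZ at or below 0.367 CPM. The fibroblast and endothelial list (PECAM1, VWF, PDGFRB, COL1A2 and DCN) stayed at or below 6.57 CPM in DU145. These lists moved with the DU145 groups, and their part in the values below was not tested.

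In DU145, 54 of the 59 genes were higher after EMD knockdown, past an edgeR adjusted p of 0.05, 1 was lower and 4 were not past it; without knockdown library 2, 2 were lower. Over all 19377 genes tested in DU145, 24.1% were called higher and 23.6% lower (47.6% in either direction), and nothing is read from the difference because the genes were chosen on this contrast. The median log2 fold change of the 59 genes was 0.55, against 0.01 over all tested genes. Their values were also close together: the interquartile range was 0.32 for the 59 genes and 0.59 for all tested genes, and 42 of the 59 (71.2%) lay within 0.25 of their own median, against 43.8% of all genes. The 59 genes were less spread than all genes in the other lines too, with interquartile ranges of 0.59 against 0.88 in 22Rv1 and 0.30 against 0.49 in C4-2B. The members also differ from all genes in level, since all 59 had 10 CPM or more in DU145, 56 in 22Rv1 and 55 in C4-2B. How far the spread goes with level was not tested, and the DU145 spread is of values known when the genes were chosen. In the classes of mean CPM from 10 up, the all-gene range was 0.44 to 0.53 in DU145, above the 0.32 of the members. It was 0.49 to 0.81 in 22Rv1, which spans the value of the members, and 0.34 to 0.43 in C4-2B, above the 0.30 of the members. In DU145 the 59 genes were not equal within error, since 22 (37.3%) lay within 2 standard errors of their median. The 3 DU145 knockdown libraries were all above the 3 controls for 55 of the 59 genes and all below them for 1, against 28.2% and 26.6% of all tested genes.

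**Figure D1:**
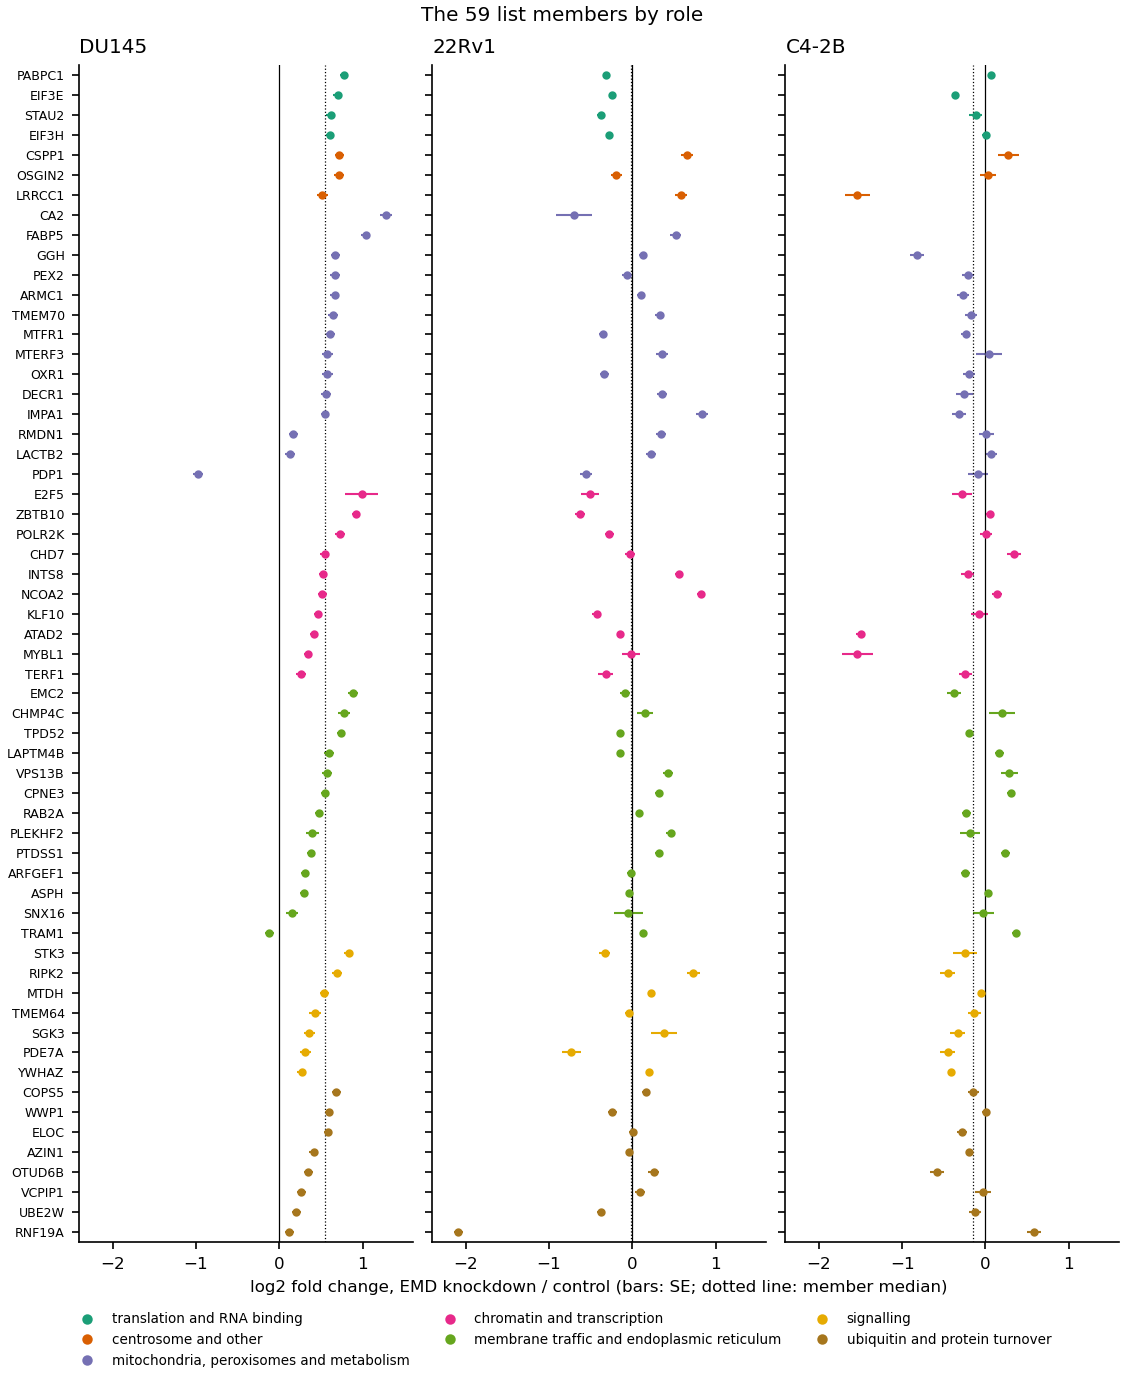
Log2 fold change of each of the 59 genes after EMD knockdown in DU145 (left), 22Rv1 (middle) and C4-2B (right), grouped by role, with standard errors as bars, 0 as a solid line and the median of the genes as a dotted line. In DU145 57 of the 59 points lie to the right of 0, while in 22Rv1 28 of 59 and in C4-2B 20 of 57 do.

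All 3 DU145 knockdown libraries carried the shift. Each gene was set to the mean of its DU145 controls, and in a control library to the mean of the remaining controls. The median of the 59 genes was then 0.55, 0.62 and 0.51 on the log2 scale in DU145 knockdown libraries 1, 2 and 3, against -0.01, 0.005 and 0.001 in DU145 controls 1, 2 and 3. The groups did not overlap, and each group lay close together. In 22Rv1 the same medians were 0.02, -0.004 and 0.02 after knockdown, against -0.01, -0.03 and 0.04 in controls, and the groups overlapped. In C4-2B they were -0.05, -0.20 and -0.13 after knockdown, against 0, -0.02 and -0.01 in controls, so that every knockdown library lay below every control by a small step.

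**Figure D2:**
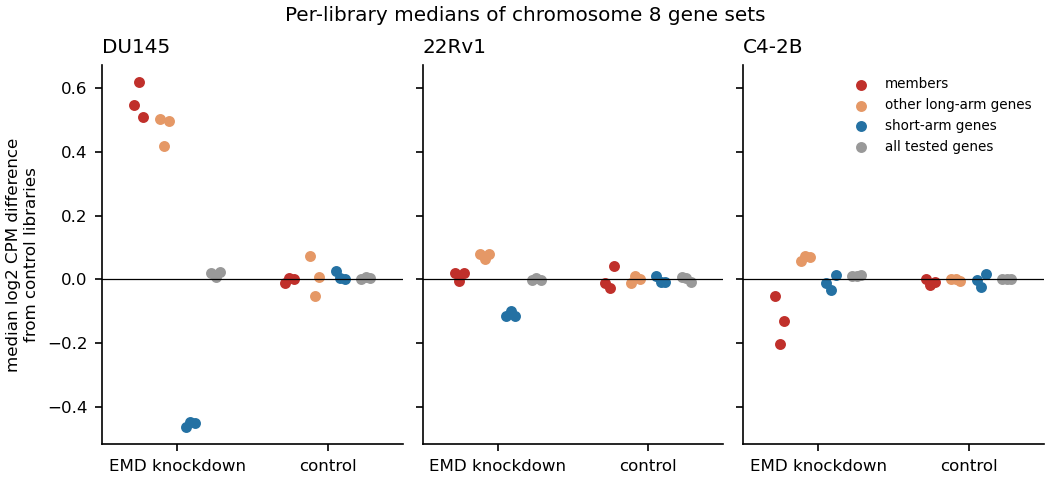
Median log2 CPM difference from the mean of the control libraries of the line, for the 59 genes, the other long-arm genes, the short-arm genes and all tested genes, with 1 point per library and knockdown left of control in each panel. A control library is set against the mean of the remaining controls. The DU145 knockdown libraries sit at 0.51 to 0.62 for the 59 genes, at 0.42 to 0.50 for the other long-arm genes and at -0.46 to -0.45 for the short-arm genes, and all remaining points lie between -0.20 and 0.08.

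The 59 genes took 1.23%, 1.23% and 1.2% of all reads in DU145 knockdown libraries, against 0.842%, 0.831% and 0.841% in DU145 controls. All reads from the long arm made up 3.44%, 3.45% and 3.44% of DU145 knockdown libraries, against 2.43%, 2.41% and 2.42% of DU145 controls. Short-arm reads moved the other way, with 0.779%, 0.777% and 0.784% after knockdown and 1.03% in each of the DU145 controls. The ratio of long-arm to short-arm reads was therefore 4.38 to 4.44 in DU145 knockdown libraries, against 2.33 to 2.35 in controls. It was 3.03 to 3.04 after knockdown and 2.82 to 2.89 in controls in 22Rv1, and 2.86 to 2.95 after knockdown and 2.74 to 2.76 in controls in C4-2B. The shares behind these ratios differed between the lines. In 22Rv1 the long-arm share was lower after knockdown, at 3.13% to 3.15% against 3.23% to 3.28% in controls, and so was the short-arm share, at 1.03% to 1.04% against 1.13% to 1.15%. The share of the 59 genes was also lower in 22Rv1, at 0.786% to 0.804% after knockdown against 0.881% to 0.899% in controls. In C4-2B the long-arm share was 2.05% to 2.07% after knockdown against 2% to 2.01% in controls, while the members held 0.562% to 0.566% against 0.578% to 0.584%. DU145 was thus the line in which the share of the 59 genes was higher after knockdown.

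The members did not stand alone on their arm. The other 420 long-arm genes tested in DU145 had a median of 0.49, 87.6% of them above 0, and 48.8% were called higher and 5.24% lower. Taken with the 59, the 479 long-arm genes had the highest median of the 41 chromosome arms with at least 50 tested genes, at 0.51. The 59 were chosen with this contrast known, so the rank of their arm is a description too. The 39 arms outside chromosome 8 ran between -0.50 for 21q and 0.15 for 19q, with a median of 0.04, and the short arm of chromosome 8 stood at -0.47 over 265 genes. Medians under -0.3 were found on 7 arms in DU145, namely 21q, 8p, 7q, 10p, 20q, 15q and 5p. In 22Rv1 the long arm ranked 6 of 41 with a median of 0.07, and in C4-2B 9 of 41 with 0.05, both inside the range of the other arms (-0.18 to 0.18 in 22Rv1, -0.19 to 0.10 in C4-2B).

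Along chromosome 8 the window medians in DU145 were all above 0 on the long arm and all below 0 on the short arm. The 11 windows of 10 Mb on the long arm had medians of 0.36 to 0.58, and the 5 windows of the short arm -0.64 to -0.41. The 13 members between 60 and 70 Mb lay in a window with a median of 0.54 over 48 genes, and the 14 between 80 and 90 Mb in 1 with 0.58 over 41 genes. The lowest of these medians, 0.36 over 20 genes at 130 to 140 Mb and 0.41 over 99 genes from 140 Mb to the tip, were in windows that hold no member. Of the genes at 10 CPM or more, the last 5 before the centromere had fold changes of -1.31 to -0.04 and the first 5 after it 0.26 to 0.95, so the sign turned between neighbouring genes across the centromere. Split by order along the arm, the 20 members nearest the centromere had a median of 0.42, the 19 in the middle 0.65 and the 20 nearest the tip 0.56. Over the whole arm, medians in DU145 were 0.38 to 0.53 in 5 classes of mean CPM, and 0.52 for 340 protein-coding genes beside 0.47 for 139 genes of other types. In 22Rv1 the 10 Mb windows of the long arm ran from -0.19 to 0.30 and in C4-2B from -0.22 to 0.15, with both signs in each line.

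**Figure D3:**
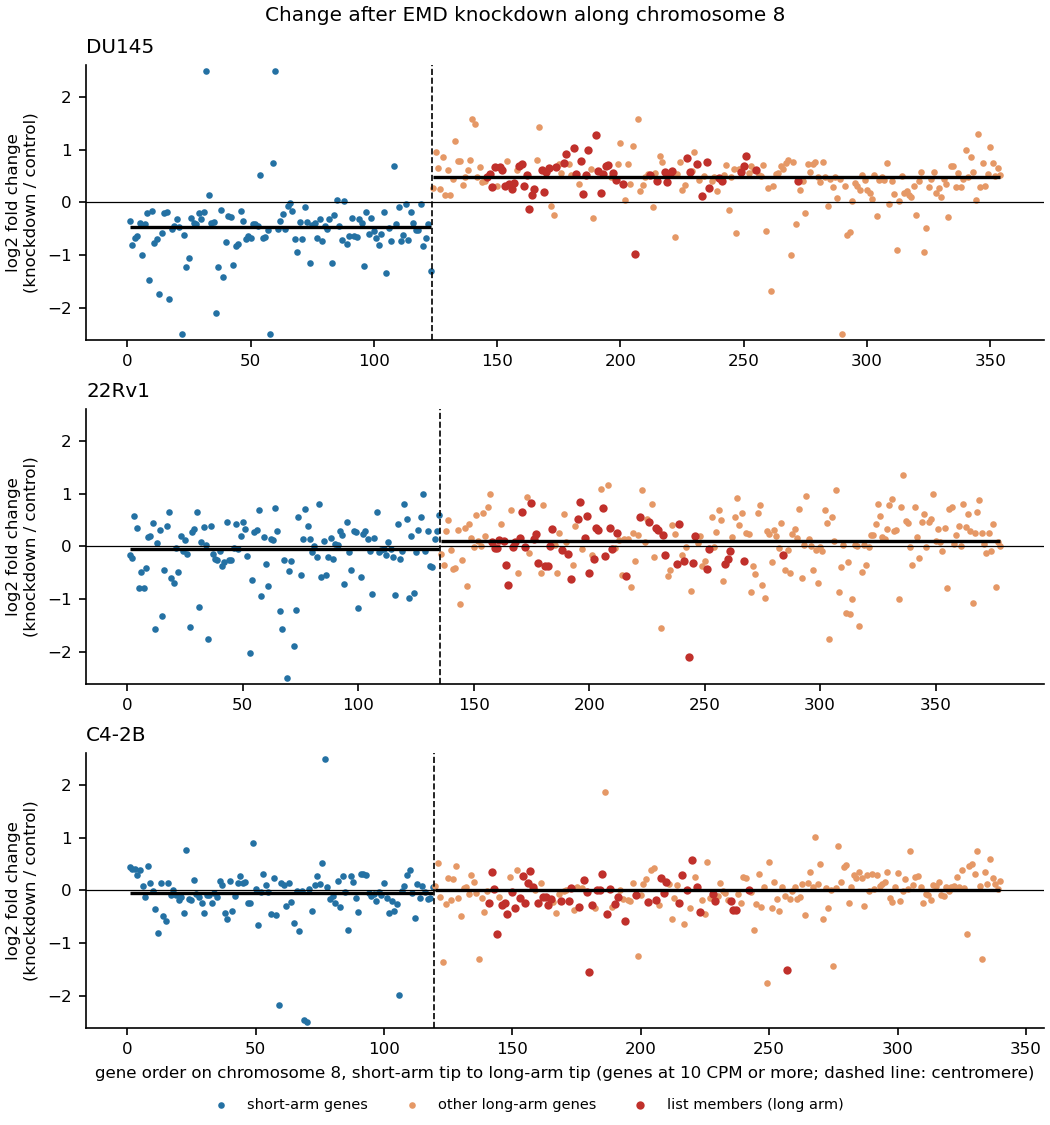
Log2 fold change after EMD knockdown of chromosome 8 genes at 10 CPM or more, in order from the short-arm tip to the long-arm tip, with the centromere as a dashed line and the median of each arm as a thick line; 5, 1 and 2 genes beyond 2.5 are drawn at that limit in DU145, 22Rv1 and C4-2B. In DU145 the 231 long-arm genes have a median of 0.49 and the 123 short-arm genes of -0.47, while the arm medians of the other lines lie between -0.04 and 0.10.

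In 22Rv1, 23 of the 59 genes rose, 22 fell and 14 were not past the edgeR threshold, against 33.5% higher and 34.3% lower (67.8% in either direction) over all 16656 tested genes. The median of the 59 genes was -0.02, beside -0.004 over all genes, and the 3 knockdown libraries lay all above the controls for 24 genes and all below for 22, against 35.1% and 35.9% of all genes. These shares are close to those over all tested genes of the line. Among 22Rv1 genes at 10 CPM or more, where 56 of the members lie, the median was 0.09. Of the calls among those genes, 59.9% were higher. In C4-2B, 7 of 57 rose, 23 fell and 27 were not past the threshold, against 19.4% higher and 22.3% lower (41.7% in either direction) over 15801 tested genes. Higher genes made up 46.6% of all C4-2B calls, and 57% when library totals replaced the TMM factors. Of the genes described below, library totals also called ASPH (-0.12) and AZIN1 (-0.12) lower in 22Rv1 and PABPC1 (0.11) and NCOA2 (0.19) higher in C4-2B. The median was -0.14 for the 57 genes, 0.07 for the other 263 long-arm genes and 0.01 for all genes. Among C4-2B genes at 10 CPM or more, where 55 of the members lie, the all-gene median was -0.02 and the long-arm median 0.003. Of the calls among those C4-2B genes, 43.4% were higher. The knockdown libraries of C4-2B lay all above the controls for 9 members and all below for 26, against 24.5% and 26% of all genes.

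The 4 genes of translation and RNA binding were all higher in DU145, with a median of 0.66, all fell in 22Rv1, with a median of -0.30, and in C4-2B 1 fell and 3 were not past the threshold. PABPC1 (ENSG00000070756, chr8:100685816-100722809, minus strand) encodes the main cytoplasmic poly(A)-binding protein, which coats mRNA tails and aids translation. It had 2581.7, 2714.3 and 2577.1 CPM in the 3 DU145 knockdown libraries, against 1515.4, 1554.3 and 1537.2 CPM in DU145 controls. This put all knockdown libraries above all controls, with a log2 fold change of 0.77 ± 0.05 (SE, n = 3 each here and below). In 22Rv1 PABPC1 fell, at 1085.4, 1022.8 and 1059.2 CPM after knockdown, against 1335.5, 1315.5 and 1284.1 CPM in controls, a log2 fold change of -0.31 ± 0.03 (edgeR adjusted p = 2.57e-08). In C4-2B PABPC1 had 1045, 1021.8 and 1002 CPM after knockdown, against 979.5, 985.7 and 977.1 CPM in controls; the groups did not overlap, but the log2 difference of 0.06 ± 0.03 missed the threshold (edgeR adjusted p = 0.165). EIF3E (ENSG00000104408, chr8:108201216-108435333, minus strand) encodes a subunit of EIF3, the complex that brings mRNA to the small ribosomal subunit. DU145 knockdown libraries held 454.2, 482.7 and 429.5 CPM of EIF3E, against 282, 278.6 and 280.5 CPM in DU145 controls, without overlap and with a log2 fold change of 0.70 ± 0.05. EIF3E fell in both other lines, to 351.1, 354 and 366.9 CPM in 22Rv1 knockdown libraries, against 405.4, 430.5 and 432.6 CPM in controls (-0.24 ± 0.04, edgeR adjusted p = 4.75e-06). C4-2B held 264.4, 264.2 and 273.1 CPM of EIF3E after knockdown, against 351.3, 342.4 and 339.1 CPM in controls, again without overlap (-0.37 ± 0.04, adjusted p = 1.18e-08). EIF3H, another EIF3 subunit, and STAU2, a protein that binds double-stranded RNA, had log2 fold changes of 0.61 ± 0.05 and 0.62 ± 0.05 in DU145 and of -0.28 ± 0.04 and -0.38 ± 0.05 in 22Rv1, where both fell (edgeR adjusted p = 9.02e-07 and 3.1e-06).

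Of the 10 genes of chromatin and transcription, all 10 were higher in DU145 (median 0.52), 2 rose and 6 fell in 22Rv1, and 1 rose and 4 fell in C4-2B. MYBL1 (ENSG00000185697, chr8:66562175-66614247, minus strand) encodes A-MYB, a DNA-binding transcription factor of the MYB family. It had 360.5, 381.1 and 342.3 CPM in DU145 knockdown libraries, against 274.8, 290.3 and 289.6 CPM in DU145 controls, without overlap (0.34 ± 0.05). 22Rv1 expressed little MYBL1, with 13.2, 14.2 and 14.4 CPM after knockdown, against 15.1, 12.2 and 14.5 CPM in controls, and the groups overlapped (-0.02 ± 0.10, edgeR adjusted p = 0.898). MYBL1 fell in C4-2B, to 3.51, 6.09 and 3.34 CPM, against 13.4, 11.7 and 12.9 CPM in controls, next to LRRCC1 the lowest fold change of the list in that line (-1.54 ± 0.19, edgeR adjusted p = 3.92e-07). ATAD2 (ENSG00000156802, chr8:123319850-123416350, minus strand) encodes an ATPase with a bromodomain, a module that reads acetylated histones. All DU145 knockdown libraries exceeded the controls, with 203.2, 208.7 and 191.7 CPM of ATAD2, against 149, 148.4 and 155.2 CPM in DU145 controls (0.42 ± 0.05). ATAD2 was lower by a small step in 22Rv1, with 371.4, 362.1 and 363.4 CPM after knockdown, against 403.3, 401 and 415.1 CPM in controls (-0.15 ± 0.03, edgeR adjusted p = 0.000362). The drop was far larger in C4-2B, where knockdown libraries held 42.3, 38.1 and 39.1 CPM of ATAD2, against 113.2, 109.6 and 114.4 CPM in controls (-1.499 ± 0.06, edgeR adjusted p = 5.9e-17). NCOA2 (ENSG00000140396, chr8:70109762-70403805, minus strand) encodes a coactivator of nuclear receptors. NCOA2 stood at 74.6, 75.9 and 78.8 CPM in DU145 knockdown libraries, against 50.7, 52.3 and 57 CPM in DU145 controls, without overlap (0.52 ± 0.05). It rose in 22Rv1, at 89.5, 90.7 and 88.3 CPM after knockdown, against 51.3, 47.5 and 52 CPM in controls (0.83 ± 0.05, edgeR adjusted p = 1.38e-11). C4-2B had 50.1, 53.4 and 52.7 CPM of NCOA2 after knockdown, against 48.2, 48.2 and 46.1 CPM in controls, a difference in the same direction that missed the threshold (0.14 ± 0.06, adjusted p = 0.0873).

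E2F5 and ZBTB10 had the highest DU145 values among the genes of chromatin and transcription. ZBTB10 (ENSG00000205189, chr8:80485619-80526265, plus strand) encodes a zinc-finger transcription factor with a BTB domain. ZBTB10 had 96.3, 97.8 and 97.3 CPM in DU145 knockdown libraries, against 51.1, 51.5 and 50.8 CPM in DU145 controls, a tight separation (0.92 ± 0.05). In 22Rv1 ZBTB10 fell, with 624, 606.4 and 622.6 CPM after knockdown, against 1051.7, 885.1 and 918.3 CPM in controls (-0.62 ± 0.06, edgeR adjusted p = 8.36e-06). In C4-2B ZBTB10 had 143.2, 136.7 and 142.5 CPM after knockdown, against 129.9, 144.6 and 132.1 CPM in controls, and the groups overlapped (0.05 ± 0.05, adjusted p = 0.384). E2F5 (ENSG00000133740, chr8:85177225-85217158, plus strand) encodes an E2F factor that represses cell-cycle genes in quiescent cells. E2F5 had 46.3, 43.8 and 29.9 CPM in DU145 knockdown libraries, against 21.1, 19.7 and 19.9 CPM in DU145 controls (0.99 ± 0.20). Knockdown library 3 lay well below the other two, though still above the controls, and E2F5 was no longer called without control library 1 (1.01), 2 (0.97) or 3 (1.02). In 22Rv1 E2F5 fell, at 15.5, 18 and 13.8 CPM after knockdown, against 20.1, 20.9 and 26 CPM in controls (-0.51 ± 0.11, edgeR adjusted p = 0.000719). In C4-2B E2F5 had 15.3, 11.8 and 12.1 CPM after knockdown, against 16.4, 15.9 and 15.3 CPM in controls, without overlap but short of the threshold (-0.28 ± 0.12, edgeR adjusted p = 0.0614), which it passed without knockdown library 1 (-0.41, edgeR adjusted p = 0.0116) and with the library number as a term of the fit, the replicate block (-0.29, edgeR adjusted p = 0.0485). CHD7 (ENSG00000171316, chr8:60678778-60868028, plus strand) encodes a chromatin remodelling helicase. CHD7 stood at 90.3, 90.9 and 96.5 CPM in DU145 knockdown libraries, against 61.5, 65.7 and 62.9 CPM in DU145 controls, without overlap (0.54 ± 0.05). In 22Rv1 CHD7 had 51.9, 46.7 and 49.8 CPM after knockdown, against 52.7, 49.4 and 49.4 CPM in controls, with overlap (-0.03 ± 0.06, adjusted p = 0.68). CHD7 rose in C4-2B, the single transcription gene to do so there, with 33.9, 35.7 and 41.1 CPM after knockdown, against 29, 30.5 and 27.7 CPM in controls (0.35 ± 0.08, edgeR adjusted p = 0.00154). The remaining members were POLR2K, a subunit shared by RNA polymerases (0.73 ± 0.06 in DU145), INTS8, a subunit of the Integrator complex (0.53 ± 0.05), KLF10, a Krüppel-like factor (0.46 ± 0.05), and TERF1, a telomere-binding protein (0.26 ± 0.06).

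Of the 8 genes of ubiquitin and protein turnover, 7 were higher in DU145 (median 0.38), 2 rose and 3 fell in 22Rv1, and 1 rose and 3 fell in C4-2B. RNF19A (ENSG00000034677, chr8:100257060-100336218, minus strand) encodes a ubiquitin ligase and gave the most divergent values of the list. DU145 knockdown libraries held 50.9, 55.2 and 54.2 CPM of RNF19A, against 50, 47.4 and 50.1 CPM in DU145 controls, a separation of 0.12 ± 0.05 that was not past the threshold, but passed it without knockdown library 1 (0.19), knockdown library 3 (0.15) or control library 3 (0.17), with library totals in place of TMM (0.17) and with the replicate block (0.12). In 22Rv1 RNF19A fell to 35.3, 31.6 and 32.1 CPM, against 141.1, 135.1 and 146.5 CPM in controls, the largest fold change of any tested member in any line (-2.09 ± 0.05, edgeR adjusted p = 2.39e-17). C4-2B went the opposite way, with 37.2, 32.9 and 32.7 CPM of RNF19A after knockdown, against 21.5, 21.5 and 25.3 CPM in controls (0.58 ± 0.09, edgeR adjusted p = 7.19e-06). AZIN1 (ENSG00000155096, chr8:102826357-102893864, minus strand) encodes an inhibitor of antizyme, the protein that sends ornithine decarboxylase to the proteasome. AZIN1 had 296.8, 317.7 and 293 CPM in DU145 knockdown libraries, against 218.2, 232.3 and 231.2 CPM in DU145 controls (0.41 ± 0.05). The 22Rv1 libraries held 413.5, 405.2 and 407.8 CPM of AZIN1 after knockdown, against 410.7, 422.8 and 428.4 CPM in controls, with overlap (-0.04 ± 0.03, adjusted p = 0.279). AZIN1 fell in C4-2B, where all knockdown libraries lay below the controls at 148.5, 152.6 and 156.2 CPM, against 170.9, 173.6 and 179.6 CPM (-0.20 ± 0.04, edgeR adjusted p = 0.000404). WWP1 (ENSG00000123124, chr8:86342738-86478420, plus strand) encodes a HECT-type ubiquitin ligase. WWP1 had 126.7, 139.8 and 126.5 CPM in DU145 knockdown libraries, against 85.8, 85.5 and 87.9 CPM in DU145 controls, without overlap (0.60 ± 0.05). WWP1 fell in 22Rv1, at 67.1, 61.1 and 68.6 CPM after knockdown, against 77.7, 76.8 and 78.1 CPM in controls (-0.24 ± 0.05, edgeR adjusted p = 0.000356). In C4-2B WWP1 had 111.5, 103.5 and 103 CPM after knockdown, against 105.2, 108.3 and 104.2 CPM in controls, and these overlapped fully (0.00 ± 0.05, adjusted p = 0.995). The other 5 were COPS5, the catalytic subunit of the COP9 signalosome (0.68 ± 0.05 in DU145), ELOC, elongin C (0.59 ± 0.05), the deubiquitinases OTUD6B (0.35 ± 0.05) and VCPIP1 (0.26 ± 0.05), and the ubiquitin-conjugating enzyme UBE2W (0.21 ± 0.06).

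Among the 13 genes of membrane traffic and the endoplasmic reticulum, 11 were higher in DU145 (median 0.47) and TRAM1 and SNX16 were not past the threshold. In 22Rv1 5 rose and 2 fell, and in C4-2B 5 rose and 4 fell. ASPH (ENSG00000198363, chr8:61500556-61714640, minus strand) encodes aspartate beta-hydroxylase, an enzyme of the endoplasmic reticulum. ASPH had 1725.4, 1823.4 and 1675.3 CPM in DU145 knockdown libraries, against 1418.5, 1429.6 and 1415.4 CPM in DU145 controls (0.29 ± 0.05). It did not separate the groups in 22Rv1, with 136, 140.2 and 146.7 CPM after knockdown, against 139, 146.4 and 148.4 CPM in controls (-0.04 ± 0.04, adjusted p = 0.443). Nor did the C4-2B libraries separate, with 479.3, 476 and 496.8 CPM of ASPH after knockdown, against 474, 468.8 and 479.1 CPM in controls (0.03 ± 0.04, adjusted p = 0.534). TRAM1 (ENSG00000067167, chr8:70573442-70608387, minus strand) encodes a partner of the translocon, through which new proteins enter the endoplasmic reticulum, and it was the lowest member but PDP1 in DU145 and among the 7 that rose in C4-2B. DU145 knockdown libraries held 301.7, 324.2 and 276.9 CPM of TRAM1, against 323, 331.5 and 325.9 CPM in DU145 controls, overlapping at -0.12 ± 0.05 and short of the threshold, which it passed without knockdown library 2 (-0.18), with the replicate block (-0.12) and in the fit of all 18 libraries (-0.10). TRAM1 rose in 22Rv1, at 175.3, 175 and 173 CPM after knockdown, against 154.4, 158.1 and 164.2 CPM in controls (0.13 ± 0.04, edgeR adjusted p = 0.00391), a call lost with library totals (0.06) and in the fit of all 18 libraries (0.09). It rose more in C4-2B, at 318.3, 306.6 and 296.5 CPM after knockdown, against 234.5, 239.2 and 242.6 CPM in controls (0.36 ± 0.04, edgeR adjusted p = 2.98e-08). EMC2, a subunit of the membrane protein insertion complex of the endoplasmic reticulum, was the highest of the group in DU145 at 0.88 ± 0.06. CHMP4C, an ESCRT-III protein (0.78 ± 0.07), and TPD52, a tumour protein often abundant in prostate cancer (0.74 ± 0.05), followed it.

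Of the 14 genes of mitochondria, peroxisomes and metabolism, 12 were higher in DU145 (median 0.60), 1 was lower and 1 was not past the threshold. In 22Rv1 8 rose and 4 fell, and in C4-2B 6 of the 12 tested fell and 6 were not past the threshold. CA2 (ENSG00000104267, chr8:85463852-85481493, plus strand) encodes carbonic anhydrase II and was the highest of the 59 in DU145, with 26.3, 28.1 and 25.4 CPM in knockdown libraries, against 10, 11.5 and 11 CPM in DU145 controls (1.28 ± 0.07). In 22Rv1 CA2 fell, with 2.84, 4.53 and 2.35 CPM after knockdown, against 4.48, 5.81 and 5.42 CPM in controls, although knockdown library 2 overlapped the controls (-0.70 ± 0.21, edgeR adjusted p = 0.00698). CA2 was not tested in C4-2B. FABP5 (ENSG00000164687, chr8:81280363-81284777, plus strand) encodes a carrier of fatty acids in the cytosol. FABP5 had 281.1, 284.7 and 258.2 CPM in DU145 knockdown libraries, against 141.3, 131.8 and 128.5 CPM in DU145 controls, without overlap (1.04 ± 0.05). It rose in 22Rv1 too, at 44.1, 41.8 and 42.6 CPM after knockdown, against 29, 31.5 and 29.6 CPM in controls (0.52 ± 0.06, edgeR adjusted p = 3.28e-07). C4-2B knockdown libraries held 3, 4 and 0 reads of FABP5, against 0 reads in every C4-2B control. Against a floor of 3 reads over the control group this is 2.9-fold higher, from 7 reads in all. The floor allows for counting error in the controls only. Neither the counting error of the 7 knockdown reads nor the spread between libraries is covered, so 2.9 is not a lower limit. PDP1 (ENSG00000164951, chr8:93857807-93926066, plus strand) encodes the phosphatase that switches on pyruvate dehydrogenase and was the single member called lower in DU145. PDP1 had 19.3, 19.2 and 18.5 CPM in DU145 knockdown libraries, against 35.2, 38.1 and 38.3 CPM in DU145 controls, without overlap (-0.97 ± 0.06). PDP1 fell in 22Rv1 as well, at 23.6, 21.4 and 20.1 CPM after knockdown, against 31.8, 31.3 and 33 CPM in controls (-0.56 ± 0.07, edgeR adjusted p = 1.34e-06). In C4-2B PDP1 had 14.4, 14 and 13.4 CPM after knockdown, against 13.3, 13.9 and 17.1 CPM in controls, with overlap (-0.09 ± 0.12, adjusted p = 0.568).

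Of the other metabolic genes, GGH and IMPA1 rose in 22Rv1 and fell in C4-2B. GGH (ENSG00000137563, chr8:63015079-63039171, minus strand) encodes gamma-glutamyl hydrolase, which trims the tails of stored folates. GGH had 99, 106.3 and 95.6 CPM in DU145 knockdown libraries, against 65.2, 63.2 and 60.4 CPM in DU145 controls, without overlap (0.67 ± 0.05). In 22Rv1 GGH rose by a small step, at 73.9, 73.7 and 72.7 CPM after knockdown, against 66.2, 68.2 and 67.6 CPM in controls (0.13 ± 0.05, edgeR adjusted p = 0.0234). That call was lost without 22Rv1 knockdown library 1 (0.11), 2 (0.13) or 3 (0.13) or control library 1 (0.11), in DESeq2 (0.12), with library totals (0.05) and in the fit of all 18 libraries (0.08). In C4-2B GGH fell, at 23.1, 21.8 and 24.9 CPM after knockdown, against 39.4, 41.8 and 41.9 CPM in controls (-0.82 ± 0.08, edgeR adjusted p = 5.13e-09). IMPA1 (ENSG00000133731, chr8:81657961-81686693, minus strand) encodes inositol monophosphatase, which frees inositol for phospholipid signalling. IMPA1 had 68.7, 71 and 64.5 CPM in DU145 knockdown libraries, against 47, 47.2 and 45.4 CPM in DU145 controls (0.55 ± 0.05). Its increase was the highest of the list in 22Rv1, at 36.3, 34.3 and 37.1 CPM after knockdown, against 19.3, 19.1 and 21.6 CPM in controls (0.84 ± 0.07, edgeR adjusted p = 2.89e-09). IMPA1 fell in C4-2B, with 26.6, 29 and 27.4 CPM after knockdown, against 33.4, 36.6 and 33.4 CPM in controls (-0.32 ± 0.08, edgeR adjusted p = 0.00227). LACTB2 (ENSG00000147592, chr8:70635318-70669174, minus strand) encodes an endoribonuclease of mitochondria. LACTB2 had 30.2, 33 and 28.6 CPM in DU145 knockdown libraries, against 28.7, 27.8 and 27.3 CPM in DU145 controls, overlapping and not past the threshold (0.13 ± 0.06), which it passed without knockdown library 1 (0.18) or 3 (0.21), with library totals in place of TMM (0.18) and with the replicate block (0.13). LACTB2 rose in 22Rv1, at 41.3, 41 and 41.7 CPM after knockdown, against 33.8, 36.2 and 36 CPM in controls (0.23 ± 0.06, edgeR adjusted p = 0.00221). The C4-2B libraries overlapped, with 47.7, 51.3 and 42.8 CPM of LACTB2 after knockdown, against 45.4, 42.4 and 47.8 CPM in controls (0.07 ± 0.07, adjusted p = 0.513). The other 8 members, among them PEX2 of the peroxisome membrane (0.67 ± 0.06), TMEM70 of ATP synthase assembly (0.65 ± 0.06) and DECR1 of fatty acid oxidation (0.56 ± 0.06), were all called higher in DU145, the lowest being RMDN1 at 0.17 ± 0.05.

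All 7 signalling genes were higher in DU145 (median 0.43), 4 rose and 2 fell in 22Rv1, and 4 fell and 3 were not past the threshold in C4-2B. YWHAZ (ENSG00000164924, chr8:100916525-100953388, minus strand) encodes 14-3-3 zeta, an adaptor that binds phosphorylated proteins. YWHAZ had 1330.1, 1426.4 and 1282.3 CPM in DU145 knockdown libraries, against 1100.3, 1138.5 and 1112.7 CPM in DU145 controls (0.27 ± 0.05). YWHAZ rose in 22Rv1, at 1299, 1237.6 and 1295.9 CPM after knockdown, against 1103, 1097.7 and 1138.8 CPM in controls (0.20 ± 0.03, edgeR adjusted p = 1.04e-05). In C4-2B YWHAZ fell, at 508.7, 491.8 and 473 CPM after knockdown, against 670.7, 636.5 and 647.8 CPM in controls (-0.41 ± 0.04, edgeR adjusted p = 2.25e-09). MTDH (ENSG00000147649, chr8:97644179-97728770, plus strand) encodes metadherin, a membrane protein linked to metastasis. MTDH had 421.4, 459.9 and 414.5 CPM in DU145 knockdown libraries, against 286.1, 299 and 303.7 CPM in DU145 controls, without overlap (0.54 ± 0.05). MTDH rose in 22Rv1, with 396.2, 389.8 and 396.6 CPM after knockdown, against 347.1, 336.5 and 330.4 CPM in controls (0.22 ± 0.03, edgeR adjusted p = 6.52e-06). In C4-2B MTDH had 392, 396.4 and 413.8 CPM after knockdown, against 404.3, 411 and 431.7 CPM in controls, with overlap (-0.05 ± 0.04, adjusted p = 0.281). RIPK2 (ENSG00000104312, chr8:89757747-89791063, plus strand) encodes the kinase that relays NOD receptor signals to NF-kB. RIPK2 stood at 44.1, 47.7 and 40.7 CPM in DU145 knockdown libraries, against 26.7, 26.7 and 28.1 CPM in DU145 controls (0.70 ± 0.06). In 22Rv1 RIPK2 rose, at 29.1, 28.6 and 27.3 CPM after knockdown, against 17.8, 16.9 and 16.6 CPM in controls (0.73 ± 0.08, edgeR adjusted p = 4.5e-08). RIPK2 fell in C4-2B, with 20.6, 19 and 18.2 CPM after knockdown, against 27.7, 26.2 and 25.2 CPM in controls (-0.45 ± 0.09, edgeR adjusted p = 0.000203). PDE7A (ENSG00000205268, chr8:65717510-65842322, minus strand) encodes a phosphodiesterase that breaks down cyclic AMP. PDE7A had 31.6, 30.1 and 28.8 CPM in DU145 knockdown libraries, against 24.7, 25.9 and 22.2 CPM in DU145 controls, without overlap (0.31 ± 0.06). PDE7A fell in 22Rv1, at 8.96, 7.71 and 7.18 CPM after knockdown, against 12.6, 13.4 and 13.9 CPM in controls (-0.73 ± 0.12, edgeR adjusted p = 1.06e-05). It fell in C4-2B too, at 18.8, 19.4 and 21.2 CPM after knockdown, against 26.1, 27.6 and 27.7 CPM in controls (-0.45 ± 0.09, edgeR adjusted p = 0.000145). STK3, a kinase of the Hippo pathway, had the highest DU145 value of the group at 0.83 ± 0.06.

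The 3 genes of the centrosome group were higher in DU145, with a median of 0.72. LRRCC1 (ENSG00000133739, chr8:85107147-85146076, plus strand) encodes a coiled-coil protein of the centrosome. LRRCC1 had 51.4, 58 and 48.1 CPM in DU145 knockdown libraries, against 36.7, 35.2 and 38 CPM in DU145 controls (0.52 ± 0.06). LRRCC1 rose in 22Rv1, at 35.6, 34.7 and 38.5 CPM after knockdown, against 23, 25 and 24.7 CPM in controls (0.58 ± 0.07, edgeR adjusted p = 2.58e-07). In C4-2B LRRCC1 fell, to 6, 5.76 and 6.38 CPM, against 16.4, 21.6 and 14.8 CPM in controls (-1.54 ± 0.15, edgeR adjusted p = 5.15e-09). OSGIN2 (ENSG00000164823, chr8:89901849-89927888, plus strand), named for its likeness to a growth inhibitor, was placed in this group only because no other role fitted. OSGIN2 had 97.8, 99.8 and 83.2 CPM in DU145 knockdown libraries, against 55.4, 58 and 56.9 CPM in DU145 controls, without overlap (0.72 ± 0.06). OSGIN2 fell in 22Rv1, at 35.6, 33.4 and 36.4 CPM after knockdown, against 40.1, 40 and 40.2 CPM in controls (-0.19 ± 0.06, edgeR adjusted p = 0.00921), a call lost without knockdown library 2 (-0.15, edgeR adjusted p = 0.0506). The C4-2B libraries overlapped, with 25.3, 23.1 and 26.7 CPM of OSGIN2 after knockdown, against 21.8, 27 and 24.4 CPM in controls (0.03 ± 0.09, adjusted p = 0.805). CSPP1, a protein of the spindle and centrosome, stood at 0.72 ± 0.06 in DU145 and rose by 0.66 ± 0.07 in 22Rv1 (edgeR adjusted p = 5.21e-08).

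Of the 57 genes tested in all 3 lines, 3 (5.26%) were called higher in every line, against 2.12% of all 13078 genes tested in all 3. They were CPNE3, a copine that binds phospholipids, PTDSS1, a phosphatidylserine synthase, and VPS13B, a lipid transfer protein of the Golgi. CPNE3 had log2 fold changes of 0.55 ± 0.05 in DU145, 0.32 ± 0.04 in 22Rv1 and 0.31 ± 0.04 in C4-2B. PTDSS1 had 0.38 ± 0.05, 0.32 ± 0.05 and 0.24 ± 0.05 in the same order of lines, and VPS13B 0.58 ± 0.06, 0.43 ± 0.06 and 0.29 ± 0.10. The C4-2B libraries of VPS13B overlapped, with 33, 42 and 47.1 CPM after knockdown, against 33.1, 33.9 and 33.2 CPM in controls. Another 7 were called higher in DU145 and fell in both other lines, namely MTFR1, PDE7A, TERF1, TPD52, OXR1, EIF3E and ATAD2 (12.3%, against 2.06% of all genes). Of the genes called higher in DU145, 21 rose (38.9%) and 20 fell (37%) in 22Rv1, against 39.7% and 32.5% of all genes called higher in DU145 and tested there. In C4-2B 5 rose (9.62%) and 23 fell (44.2%), against 20.1% and 28.2% of such genes. These shares rest on the DU145 calls that chose the list and are given as a description. Between the other lines, 8 genes rose in 22Rv1 and fell in C4-2B (GGH, SGK3, IMPA1, LRRCC1, RIPK2, OTUD6B, INTS8 and YWHAZ), 14% of 57 against 11.3% of all genes tested in both, while LAPTM4B and RNF19A did the opposite (3.51% against 7.39%).

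The difference between the knockdown changes of 2 lines was taken in a fit of all 18 libraries over 17152 genes, which holds 58 of the 59 because CA2 is not in the C4-2B table. DU145 minus 22Rv1 had a median of 0.56 over the 58 genes, with 42 called higher and 4 lower, against 30.4% and 25.3% (55.6% together) of all genes and a median of 0.09. DU145 minus C4-2B had a median of 0.70, with 48 called higher and 4 lower, against 24.5% and 21.2% (45.7% together) of all genes and a median of 0.02. Both differences hold the DU145 contrast that chose the genes, so they are descriptions. 22Rv1 minus C4-2B, which does not, had a median of 0.07, with 23 higher and 16 lower, against 27% and 29.1% (56.1% together) of all genes and a median of -0.06. The 23 make 39.7% of the 58 genes. This background was not matched for level, so nothing is read from that share. In the separate fits, all genes at 10 CPM or more had a median of 0.09 in 22Rv1 and -0.02 in C4-2B. The 22Rv1 change exceeded the C4-2B change most for LRRCC1, by 2.07 ± 0.15 on the log2 scale (SE, edgeR adjusted p = 3.13e-13), then MYBL1 (1.45 ± 0.18, adjusted p = 6.95e-07), ATAD2 (1.299 ± 0.06, adjusted p = 1.99e-18) and RIPK2 (1.13 ± 0.11, adjusted p = 5.08e-11). It was below the C4-2B change most clearly for RNF19A (-2.72 ± 0.10, edgeR adjusted p = 1.17e-21), while the larger value of FABP5 rests on 7 reads against none in C4-2B. The 3 line differences share libraries, so no likeness between them is drawn.

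Levels in control cells were compared between lines as log2 of CPM plus 1, without a test because line and batch coincide. The median of the 58 genes in DU145 controls was -0.01 relative to 22Rv1 controls and 0.38 above C4-2B controls; with library totals in place of TMM these were -0.18 and 0.24. In DU145 knockdown cells it was 0.51 above 22Rv1 controls and 0.84 above C4-2B controls, while the median of all genes stayed within 0.03 of 0 in each of these. The other 317 long-arm genes stood at -0.29 in DU145 controls relative to 22Rv1 controls and at 0.11 in DU145 knockdown cells. Relative to C4-2B controls the same genes stood at 0.25 in DU145 controls and 0.59 in DU145 knockdown cells. Short-arm genes of DU145 controls were 0.55 above C4-2B controls. For the 58 genes, 22Rv1 controls were also 0.54 above C4-2B controls.

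Several of the genes encode subunits of complexes whose other subunits lie elsewhere in the genome, in a list of 7 complexes or families drawn up after arm values had been seen. The 8 members in it, EIF3E, EIF3H, COPS5, INTS8, EMC2, POLR2K, TERF1 and YWHAZ, were all higher in DU145, with a median of 0.65. Their 62 partners had a median of 0.06, with 24 called higher, 14 lower and 24 not past the threshold. Over all tested genes 24.1% were called higher and 23.6% lower in DU145. The 12 partners on arms with a DU145 median below -0.3 had a median of -0.33 (1 higher, 11 lower). The other 50 had a median of 0.12 (23 higher, 3 lower). Members and low arms were both picked with this contrast known, so nothing is read from these differences. In EIF3, the partners ran from -0.22 for EIF3B to 0.58 for EIF3G, against 0.70 for EIF3E and 0.61 for EIF3H. In the COP9 signalosome, COPS5 stood at 0.68, while its 8 partners ran from -0.65 for COPS6 on 7q to 0.25 for COPS4 on 4q, 3 called higher and 3 lower. In shelterin, which caps telomeres, TERF1 stood at 0.26 and its partners ran from -0.67 for POT1 on 7q to 0.25 for ACD on 16q. In 22Rv1 the 8 members had a median of -0.16 (3 rose, 4 fell) and the 62 partners 0.35 (47 rose, 4 fell). Over all genes tested in 22Rv1 33.5% rose and 34.3% fell. In C4-2B the medians were -0.23 for the 8 members (5 fell, 3 not past the threshold) and -0.10 for 61 partners (8 rose, 26 fell). There 19.4% of all tested genes rose and 22.3% fell.

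**Figure D4:**
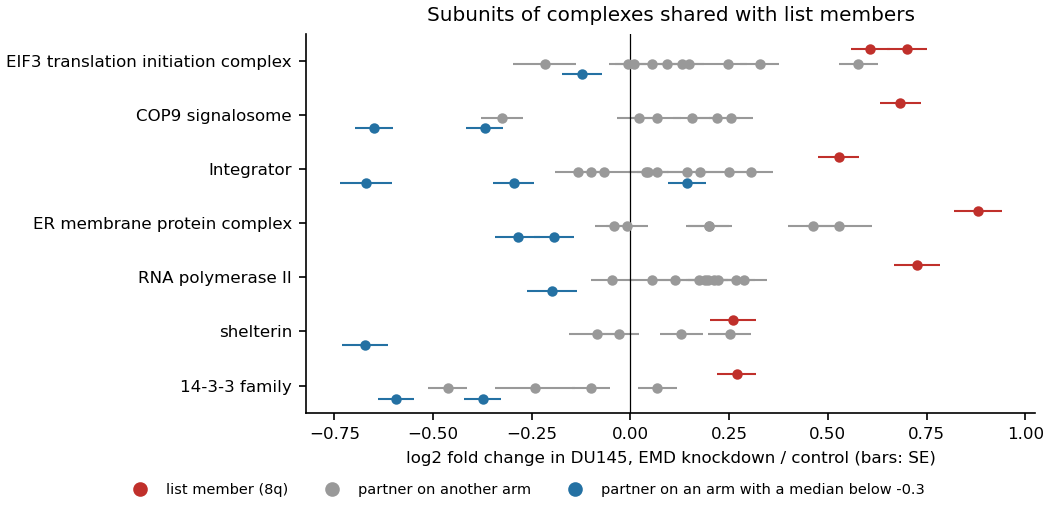
Log2 fold change in DU145 of the subunits of 7 complexes or families that hold a long-arm member, with standard errors as bars; members are red, partners on arms with a DU145 median below -0.3 blue and other partners grey. All 8 members lie between 0.26 and 0.88 and the 62 partners on both sides of 0; blue marks arms by the same contrast that is plotted, so the place of the blue points is not a finding.

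Counting limits some of these values. In the annotation 40 of the 59 genes overlap a gene on the opposite strand, and the strandedness of the kit is not given in the sources used here, so reads of such pairs cannot be told apart. MTFR1 and PDE7A overlap each other on opposite strands, as do COPS5 and CSPP1, and WWP1 and RMDN1. Pseudogenes named after the gene exist for 13 members, with 32 for ELOC, 13 each for PABPC1 and FABP5 and 8 for YWHAZ, and the counting may split reads among such copies.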

How the data were processed

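RNA-seq libraries of 3 prostate cancer lines were analysed from the gene tables that the authors deposited, which give an RSEM expected count, rounded to a whole number, for each gene. The submitters' processing notes name STAR, RSEM 1.3.1 and GRCh38. The annotation release and the kit's strandedness are not given in the sources used here. Spike-in sequences (92) and second copies of pseudoautosomal genes (30) were left out of the DU145 table. The tables of 22Rv1 and C4-2B hold fewer genes, and a gene not in them was not tested.

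The 6 libraries of a line were fitted together. After filterByExpr (at least 10 counts, and 15 in total) and TMM scaling, each gene was tested with edgeR 4.0.16 (robust quasi-likelihood F test, R 4.3.3), with Benjamini-Hochberg adjustment over all genes tested and a threshold of 0.05. Every adjusted p comes from this edgeR test; an SE is the size of the fold change divided by the root of F. Line differences came from 1 edgeR fit of 18 libraries on the 18445 genes of all 3 tables. More reads lower the counting error of a gene, to which the spread between libraries adds. Replicate libraries differed by more than counting (chi-square per degree of freedom 2.28 to 8.7), so none was treated as a copy. Gene positions are those of GENCODE 29 on GRCh38, which placed 97.5% of the tested DU145 genes on an arm. Alternatives were library totals, relative log expression factors, no filter, DESeq2 1.42.0, a replicate block, a joint fit and each library left out. The scripts were tested on simulated data. The values of 1 marker gene are not reported here. The member genes and gene lists were chosen with earlier results of these data known. Genes shown by library are, in each role group, the 2 with the highest CPM in DU145 controls, then the 4 highest and 4 lowest fold changes in DU145 and the 3 highest and 3 lowest in each other line.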

Additional observations from a re-analysis of the deposited data

Results flagged for a closer look

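The change after knockdown differed between 22Rv1 and C4-2B for 19 of the 24 genes shown by library that this fit holds, by the edgeR test of the difference itself in the fit of all 18 libraries; the values are 22Rv1 minus C4-2B on the log2 scale. It was higher in 22Rv1 for LRRCC1 (2.07), MYBL1 (1.45), ATAD2 (1.299), RIPK2 (1.13), IMPA1 (1.11), GGH (0.90), NCOA2 (0.64), YWHAZ (0.56) and MTDH (0.23). It was lower in 22Rv1 for FABP5 (-4.32), RNF19A (-2.72), ZBTB10 (-0.73), PDP1 (-0.50), CHD7 (-0.42), PABPC1 (-0.42), PDE7A (-0.32), WWP1 (-0.29), TRAM1 (-0.28) and OSGIN2 (-0.27). The FABP5 value rests on 7 reads in C4-2B knockdown libraries and none in C4-2B controls, so its size depends on the prior count. Of all 17152 genes in that fit, 56.1% were called different between these lines; the 24 genes include those with the highest and lowest fold changes in either line, so the counts are not compared.

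Every DU145 knockdown library had a positive median over the 59 genes, with a middle value of 0.55 on the log2 scale. These genes were chosen with the DU145 contrast known, so that sign is a description. Every C4-2B knockdown library had a negative median, and the difference between the medians was not tested.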

How the results depend on the processing

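Every setting kept the DU145 members higher as a group. They were chosen with the DU145 contrast of these libraries known, so this is a description and carries no test. Leaving out single libraries gave DU145 member medians of 0.524 to 0.613 on the log2 scale, with 52 to 57 members higher and 1 to 2 lower. These runs called 8213 to 9525 genes in DU145. In 22Rv1 these runs gave -0.034 to 0.016, 21 to 24 higher, 21 to 22 lower and 10661 to 11016 genes called, and in C4-2B -0.180 to -0.098, 5 to 7 higher, 20 to 25 lower and 5620 to 6258 called. Replicate numbers did not pair the libraries: same-numbered libraries correlated at -0.27 to 0.13, and 2 of 9 knockdown libraries were closest to their own-numbered control. With the number as a replicate block, 56 members were higher and 2 lower in DU145, 23 and 22 in 22Rv1 and 7 and 25 in C4-2B; the joint fit of all libraries also gave 2 lower in DU145. Library totals moved the DU145 medians to 0.558 for 8q and -0.414 for 8p, those of 22Rv1 to -0.097 for the members, -0.012 for 8q and -0.185 for 8p, and those of C4-2B to 0.101 for 8q and 0.025 for 8p. They also gave member medians of 0.622 for DU145 minus 22Rv1 and -0.008 for 22Rv1 minus C4-2B, and control levels of -0.181 and 0.239 for DU145 relative to 22Rv1 and C4-2B. Relative log expression factors gave -0.480 for 8p in DU145 and 0.062 for 8q in 22Rv1. The joint fit put the 22Rv1 member median at -0.069. Without a filter the 22Rv1 medians were -0.024 for 8q and -0.233 for 8p, and those of C4-2B 0.062 and 0.015. Protein-coding genes alone gave -0.491 for 8p in DU145, 0.079 for 8q in 22Rv1, and 0.019 and -0.054 for 8q and 8p in C4-2B. Genes at 10 CPM or more gave 0.102 and -0.044 for 8q and 8p in 22Rv1 and 0.003 for 8q in C4-2B. Windows of 20 Mb put the lowest 8q median at 0.408 in DU145 and -0.118 in C4-2B and the highest in 22Rv1 at 0.197. Of the single genes, 898 values kept their side of the threshold, 18 passed it anew, 13 no longer did, and 16 turned sign, each near 0 and uncalled: WWP1 in C4-2B (-0.001 under relative log expression factors, no filter, DESeq2 and the block) and, with single libraries left out, MYBL1 in 22Rv1 (-0.088 to 0.040), CHD7 in 22Rv1 (-0.075 to 0.012), and in C4-2B WWP1 (-0.037 to 0.019), OSGIN2 (-0.039 to 0.106), PDP1 (-0.163 to 0.030) and LACTB2 (-0.002 to 0.131). The cause of these moves was not tested. FABP5 in C4-2B, with 7 reads in all, is limited by depth.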

Other observations

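In C4-2B the long-arm genes that do not encode proteins stood above those that do: 46 such genes had a median log2 fold change of 0.29, with 65.2% above 0, and 274 protein-coding genes a median of 0.02, with 52.6% above 0. The short arm showed the same order in C4-2B, with 0.34 over 34 genes of other types and -0.05 over 153 protein-coding genes. By mean CPM, the C4-2B long-arm median was 0.31 over 47 genes under 2 CPM and 0.01 over 45 genes at 100 CPM and over, beside 0.19 and -0.03 over all genes in these classes, and the 57 members lie mostly in the classes near 0 or below. In 22Rv1 the order ran the other way, with -0.19 over 50 long-arm genes under 2 CPM and 0.10 over 73 genes at 100 CPM and over, beside -0.48 and 0.15 over all genes in these classes.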
